A study of Mus musculus with 16 samples.

Results

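The nuclear Wnt effectors described here are 9 genes out of 25755 mouse gene symbols with curated RefSeq transcripts. They encode beta-catenin (Ctnnb1), the Tcf/Lef factors (Tcf7, Tcf7l1, Tcf7l2 and Lef1) and the Tle corepressors (Tle1, Tle2, Tle3 and Tle4). They were chosen by name, and all 9 were found in the annotation. For each gene, the peaks within 2500 bp on either side of every annotated start site, and those over the gene body, were read from 6 peak lists. H3K4me3, H3K27me3 and Suz12 had been measured by ChIP-sequencing in LIF-ESCs and Myc-ESCs. Both cultures were R1 mouse embryonic stem cells grown without feeders in serum with vitamin C. The cells carried a Myc protein fused to the estrogen receptor (MycER), which 4-hydroxytamoxifen (OHT) activates. LIF-ESCs received 100 units per ml of LIF. Myc-ESCs received 50 nM OHT in place of LIF, so the presence of OHT and the absence of LIF cannot be told apart as sources of a difference. The MycER cells of the study are a single clone, D1, whose Myc protein has the T58A change. An independent clone, A2, was used in other experiments. The labels do not name the clone behind these libraries.

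In the canonical Wnt pathway, beta-catenin that escapes the destruction complex enters the nucleus and binds Tcf/Lef factors, which sit on DNA through an HMG box. Without beta-catenin, these factors recruit Tle corepressors, the mouse relatives of Drosophila Groucho, and hold target genes down. In mouse embryonic stem cells Tcf7l1 is best known as a repressor of pluripotency genes, and beta-catenin relieves that repression. H3K4me3 marks the start sites of active and poised genes. Suz12 is a core subunit of Polycomb repressive complex 2 (PRC2), which deposits H3K27me3.

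The labels name 16 libraries, 4 of them inputs and 2 for each culture and antibody, but there was 1 peak list per culture and antibody. No replicate error could be computed and no test was possible, so all values below are descriptions. The depth behind the lists is unknown. The lists held between 3120 peaks (H3K27me3, LIF-ESCs) and 32469 peaks (H3K4me3, LIF-ESCs), and the H3K27me3 list of Myc-ESCs was longer, with 16717 peaks. The Suz12 lists were closer in length, at 11305 peaks (LIF-ESCs) and 13907 peaks (Myc-ESCs). Each peak carries the MACS score, which is 10 times the negative log10 of its p-value and grows with depth as well as with enrichment. Scores pile up at 3100, the value of 4006 LIF-ESC and 3185 Myc-ESC H3K4me3 peaks, so equal scores there do not compare enrichment. A peak list gives where signal passed a threshold, and a mark on fewer cells cannot be told apart from less of it per cell. Of 6 genes that define embryonic stem cells (Pou5f1, Sox2, Nanog, Esrrb, Klf4 and Zfp42), 6 had an H3K4me3 peak at the start site in each culture. Their Polycomb marks were not the same in the cultures: the highest Suz12 score at Klf4 was 2505 in Myc-ESCs with no peak in LIF-ESCs, at Esrrb it was 460 (LIF-ESCs) and 3100 (Myc-ESCs), while Esrrb had H3K27me3 (score 97.8) in Myc-ESCs only. H3K4me3 scores at Nanog, Esrrb and Klf4 were 3100 in LIF-ESCs against 804, 722 and 1623 in Myc-ESCs. The part of these differences in the results below was not tested.

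H3K4me3 peaks lay at the start sites of all 9 genes in both cultures, as they did at 61.5% of all genes. The genes differed in their Polycomb marks. H3K27me3 was found in Myc-ESCs only at 3 of them (Tcf7l2, Tle1 and Tle3), against 7.69% of all genes, and in LIF-ESCs at none of the 9, against 3.84%. The 3 calls rest on low scores in the longer list: none of them was left at a score of at least 100 or with lists of equal length, where the count was 0. Suz12 was found in Myc-ESCs only at 3 (Tle1, Tle2 and Tle3), against 3.83% of all genes, and in both cultures at 2 (Tcf7l2 and Lef1), against 10.9%. Ctnnb1, Tcf7, Tcf7l1 and Tle4 had neither mark in either culture. Among the 15852 genes with H3K4me3 in both cultures, which is the group these 9 genes belong to, the shares were 11.3% for H3K27me3 in Myc-ESCs only, 5.78% for Suz12 in Myc-ESCs only and 16.3% for Suz12 in both. A gene with neither Polycomb mark was the usual case in that group, at 74.2%.

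**Figure D1:**
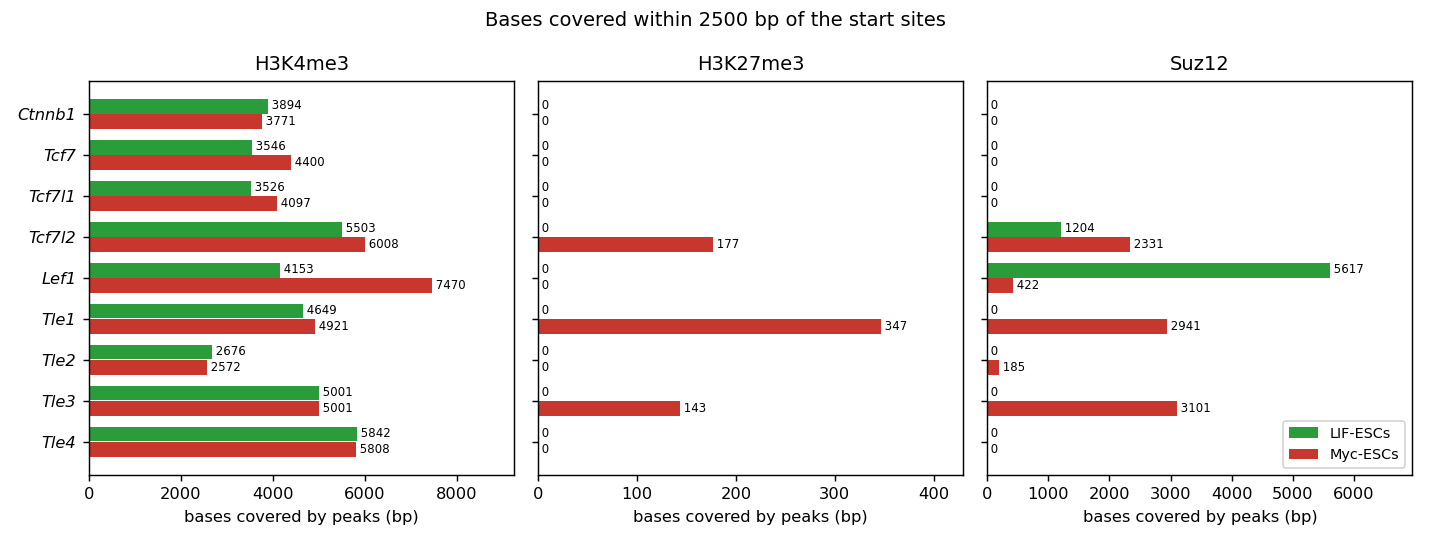
Bases covered by peaks within 2500 bp of the start sites (x axis, bp, a separate scale for each antibody) for the 9 genes, with 1 bar per gene and culture and no error bar because each bar comes from 1 list. Lef1 stands at 5617 bp of Suz12 in LIF-ESCs compared with 422 bp in Myc-ESCs, while Tle1 and Tle3 go from 0 to 2941 and 3101 bp.

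Ctnnb1 encodes beta-catenin, the coactivator that Tcf/Lef factors need and also a component of adherens junctions. It lies on chromosome 9 (plus strand, 120933400 to 120960507 in GRCm38) and has 2 start sites 178 bp apart. A single H3K4me3 peak covered its start sites in each culture. That peak measured 9210 bp with a score of 1964 in LIF-ESCs compared with 5249 bp with a score of 1341 in Myc-ESCs. The upstream edge hardly moved, from -1215 to -1092 bp relative to the first start site, whereas the downstream edge lay at 7994 bp in LIF-ESCs compared with at 4156 bp in Myc-ESCs, inside intron 1 in both. The log2 ratio of the lengths, Myc-ESCs over LIF-ESCs, was -0.81, and 2.55% of the 14759 genes with a peak over the first start site in both cultures had a ratio at or below it. The median over those genes was 0.06, with 5% of them below -0.54. LIF-ESCs had a further intron 1 peak of 1720 bp (score 80.0), which was not called in Myc-ESCs. Because the shortening lay outside the 2500 bp window, the bases covered within it were nearly alike, at 3894 and 3771.

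Tcf7, which encodes the factor also called Tcf1, lies on chromosome 11 (minus strand, 52246527 to 52283383). Its H3K4me3 peak measured 3546 bp (score 697) in LIF-ESCs compared with 6246 bp (score 1457) in Myc-ESCs, a log2 ratio of 0.82, and 97.0% of the 14759 genes stood at or below that. Here the downstream edge stayed within intron 3 while the upstream edge lay at -1987 bp in LIF-ESCs compared with at -4346 bp in Myc-ESCs. LIF-ESCs had a separate H3K4me3 peak of 1382 bp (score 56.5) from -4139 to -2758 bp, so most of the stretch that the longer Myc-ESC peak reached was also marked in LIF-ESCs, and the ratio of lengths compares 1 continuous peak with 1 of 2 pieces.

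Tcf7l1, also called Tcf3, lies on chromosome 6 (minus strand, 72626371 to 72789045) and has 1 start site. The H3K4me3 peak over it was 3938 bp long in LIF-ESCs compared with 4542 bp in Myc-ESCs, with scores of 1250 and 2080. Its intron 3, which spans most of the gene, held 5 further H3K4me3 peaks in LIF-ESCs compared with 3 in Myc-ESCs. Each of the 3 Myc-ESC peaks overlapped a LIF-ESC peak. The remaining 2 LIF-ESC peaks, with scores of 63.3 and 132, had no counterpart. The highest LIF-ESC score among these intron peaks was 302, where the overlapping Myc-ESC peak scored 99.5. Another overlapping pair scored 286 (LIF-ESCs) and 110 (Myc-ESCs). The last pair went the other way, with a score of 80.1 over 1561 bp (LIF-ESCs) against 270 over 4061 bp (Myc-ESCs). The predicted gene Gm31391 starts inside both peaks of that pair, on the opposite strand and 111503 bp from the Tcf7l1 start site. That pair therefore cannot be assigned to Tcf7l1 alone. No Polycomb peak was called anywhere in Tcf7l1, the longest gene of the Tcf/Lef group after Tcf7l2.

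**Figure D2:**
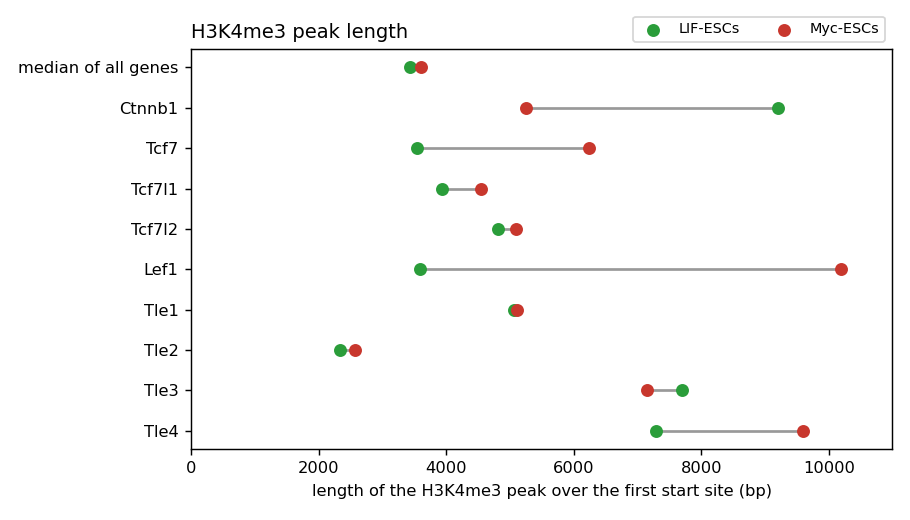
Length of the H3K4me3 peak over the first start site (x axis, bp) in LIF-ESCs and Myc-ESCs for the 9 genes and, in the top row, the median over 14759 genes; points of one gene are joined by a line and come from 1 list each. Lef1 and Ctnnb1 lie farthest from the median pattern, in opposite directions, and Tle1 shows nearly the same length in both cultures. For Lef1 and Tcf7 the LIF-ESC point is 1 of 2 LIF-ESC pieces that the Myc-ESC peak spans.

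Tcf7l2, also called Tcf4, lies on chromosome 19 (plus strand, 55741797 to 55933659). It has 2 start sites counted here: 24 curated transcripts begin at the first and 1 begins at the second, 153511 bp downstream, in what is intron 5 of the longer transcripts. H3K4me3 covered the first start site with a peak of 4807 bp in LIF-ESCs compared with 5102 bp in Myc-ESCs, at scores of 2404 and 2454. At the second start site the peaks were weaker, 1637 bp with a score of 109 and 2308 bp with a score of 119.

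Suz12 lay at both start sites of Tcf7l2 in both cultures. Within the windows it covered 1204 bases in LIF-ESCs compared with 2331 in Myc-ESCs. At the first start site it covered 686 and 1239 bases, a log2 ratio of 0.85 against a median of 0.46 over the 2713 genes with Suz12 at the first start site in both cultures. In LIF-ESCs these bases fell in intron 3, in peaks that began 1702 bp downstream of the start. In Myc-ESCs a 1371 bp peak with a score of 862 covered part of the same intron, and 3 further peaks lay closer to the start, from 33 to 1017 bp, in exon 1, intron 1 and exon 2. Those 3 had scores of 55.5 to 138 and no LIF-ESC counterpart. At the second start site Suz12 covered 518 bases in LIF-ESCs compared with 1092 in Myc-ESCs.

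H3K27me3 at Tcf7l2 was sparse in both lists. The peak behind its Myc-ESC call was 177 bp long (score 59.8) and lay in intron 5, inside the Suz12 peak at the second start site. Near the first start site, LIF-ESCs had 3 peaks of 152 to 154 bp in intron 3, from 3156 to 3842 bp downstream, and Myc-ESCs had 1 peak of 151 bp from 4057 to 4207 bp. These lay outside the 2500 bp window. With 5000 bp on either side, Tcf7l2 counted as marked in both cultures. Neither Myc-ESC peak overlapped a LIF-ESC one. The curated gene Gm31734 starts on the opposite strand 1393 bp from the first start site of Tcf7l2, so peaks there cannot be assigned to either gene alone.

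Lef1, the Tcf/Lef family member best known from lymphocyte development and as a Wnt target itself in many tissues, showed the largest difference in Suz12 of the 9 genes. It lies on chromosome 3 (plus strand, 131110297 to 131224357) and has 4 start sites. In LIF-ESCs, 3 Suz12 peaks reached the start-site windows and flanked the first start site. The farthest upstream spanned 3129 bp (score 2301) from -4716 to -1588 bp, the next 1189 bp (score 487) from -1499 to -311 bp, and the third 3515 bp (score 2615) from 51 to 3565 bp, from exon 1 into exon 2. In Myc-ESCs only a 350 bp peak (score 93.9) and a 181 bp peak (score 53.7) were called in this stretch, each inside one of the long LIF-ESC peaks. Suz12 therefore covered 5617 bases of the 12496 bp around the start sites in LIF-ESCs compared with 422 in Myc-ESCs, a log2 ratio of -3.73.

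H3K4me3 at Lef1 went the other way. LIF-ESCs had a peak of 3168 bp upstream (score 305) and a peak of 3597 bp over the start (score 812), with a gap from -1945 to -237 bp between them. Myc-ESCs had a single peak of 10193 bp with a score of 3100, from -5223 to 4969 bp. It ran through the gap and over the 3 LIF-ESC Suz12 peaks described above. A short LIF-ESC Suz12 peak (score 58.3), from -5782 to -5603 bp, lay outside it. In LIF-ESCs, 3865 of the 5617 Suz12 bases, or 68.8%, also lay in H3K4me3 peaks. The log2 ratio of the length of the peak over the start was 1.50, and 99.5% of the 14759 genes stood at or below it. The LIF-ESC length leaves out the upstream piece of 3168 bp, which lay inside the Myc-ESC peak. The ratio therefore compares 1 continuous peak with 1 of 2 pieces. Counted over 5000 bp windows, H3K4me3 at Lef1 covered 6653 bases in LIF-ESCs compared with 9970 in Myc-ESCs. Where LIF-ESCs had long Suz12 peaks with H3K4me3 in 2 pieces, Myc-ESCs thus had 1 long H3K4me3 peak with 2 short Suz12 peaks.

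H3K27me3 was not called at Lef1 in either culture. The nearest peak lay 1047617 bp away in LIF-ESCs compared with 377779 bp away in Myc-ESCs. Among genes with as much LIF-ESC Suz12 this was unusual: counted at the first start site alone, Suz12 covered 4552 bases in LIF-ESCs, and 130 of 3034 genes with LIF-ESC Suz12 had at least that many. Of those 130 genes, 95 (73.1%) had H3K27me3 in LIF-ESCs compared with 128 (98.5%) in Myc-ESCs, and Lef1 was the 1 gene without the mark in both. Fewer Suz12 bases in Myc-ESCs than in LIF-ESCs were counted at 19 of the 130 (14.6%), and no gene of the 130 other than Lef1 had as few as its 422. The log2 ratio at the first start site was -3.43, and 2 of the 2713 genes with Suz12 in both cultures, Lef1 included, had a ratio that low. A further 321 genes had Suz12 in LIF-ESCs and none in Myc-ESCs at the first start site, with at most 3373 LIF-ESC bases (Grhl2 and Gm16136). These counts describe the lists and were not tested. The predicted gene Gm36603 starts on the opposite strand, 2319 bp from the first start site.

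**Figure D3:**
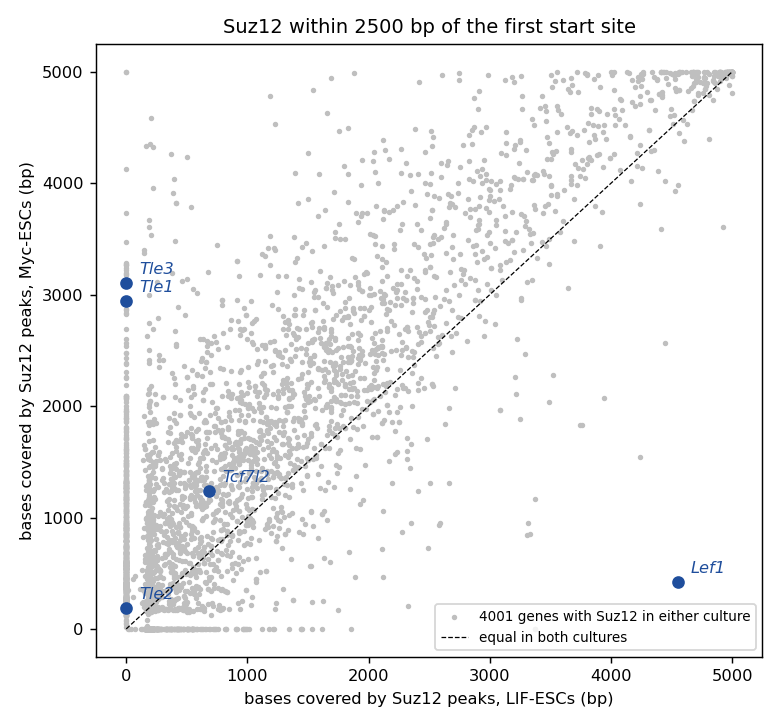
Bases covered by Suz12 peaks within 2500 bp of the first start site in LIF-ESCs (x axis, bp) and Myc-ESCs (y axis, bp) for 4001 genes with Suz12 in either culture (grey points), with the effector genes in blue and equal coverage dashed. Lef1 lies at the lower right, at 4552 and 422 bp, and the genes without Suz12 in Myc-ESCs reach 3373 bp on the x axis, while Tle1 and Tle3 lie high on the left edge at 0 bp in LIF-ESCs.

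The start sites of Lef1 did not share these marks. The fourth, 45997 bp downstream of the first, had no peak of any list in its window. For comparison of a start site with peaks in its window and one without, the 250 bases before each are given. The stretch before the first start site lay in no Suz12 peak of either culture, between LIF-ESC peaks that ended at -311 bp and began at 51 bp. H3K4me3 peaks covered it, in LIF-ESCs from -237 bp on. The bases are from the plus strand of GRCm38, 5′ to 3′, at chr3:131110047-131110296 and chr3:131156044-131156293, with CG dinucleotides in capitals.
Lef1 before the first start site: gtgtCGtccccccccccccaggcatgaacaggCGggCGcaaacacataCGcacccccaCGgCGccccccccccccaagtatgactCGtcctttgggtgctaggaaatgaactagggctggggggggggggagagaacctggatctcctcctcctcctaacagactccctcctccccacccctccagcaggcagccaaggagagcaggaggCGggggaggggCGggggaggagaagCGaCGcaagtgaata
Lef1 before the fourth start site: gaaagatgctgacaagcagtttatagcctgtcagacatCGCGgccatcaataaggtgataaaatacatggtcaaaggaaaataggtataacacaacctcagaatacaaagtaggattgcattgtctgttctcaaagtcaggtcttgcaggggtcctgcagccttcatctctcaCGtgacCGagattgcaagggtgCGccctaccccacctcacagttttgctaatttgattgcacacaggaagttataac
The stretch before the first start site is 66.4% G and C with 11 CG dinucleotides, and the stretch before the fourth is 44.8% G and C with 5. Both have 0.40 of the CG dinucleotides that their base composition gives. Over 300 bases, the 4 promoters of Lef1 stood at 0.35 to 0.62, near the median of 0.38 over all promoters.

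The Tle genes encode corepressors that bind Tcf/Lef factors and many other repressors. Tle1 lies on chromosome 4 (minus strand, 72109945 to 72200989). LIF-ESCs had no Suz12 and no H3K27me3 peak at its start site. Myc-ESCs had 8 Suz12 peaks there, which covered 2941 of 5001 bases. The longest, 1180 bp with a score of 617, lay in exon 1 and intron 1, and the others, of 165 to 520 bp, lay on both sides of the start, with 6 of them upstream. Of the 967 genes with Suz12 at the first start site in Myc-ESCs only, 18 (1.86%), Tle1 included, had at least as many bases, and the median was 414.

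Tle1 also had 2 H3K27me3 peaks in Myc-ESCs, both upstream, with scores of 57.1 and 70.0. Together they covered 347 bases, of which 277 lay in Suz12 peaks and all in H3K4me3. Of 1929 genes with H3K27me3 in Myc-ESCs only, 786 (40.7%) had at least as many bases. So Tle1 stood near the top for Suz12 and near the middle for H3K27me3. The window left out 2 further H3K27me3 peaks, of 329 bp (score 164) from -2840 to -2512 bp and of 204 bp (score 72.2) from -3363 to -3160 bp. With 5000 bp on either side, H3K27me3 at Tle1 covered 880 bases in Myc-ESCs, and LIF-ESCs still had none. The H3K4me3 peak was of nearly the same length in the cultures, 5058 and 5117 bp, both with scores at the pile-up value of 3100. The curated gene C630043F03Rik starts 351 bp away on the opposite strand, so the peaks upstream of Tle1 cannot be assigned to either gene alone.

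Tle3, on chromosome 9 (plus strand, 61372326 to 61418497), resembled Tle1. It too had no LIF-ESC Polycomb peak, and its 8 Suz12 peaks in Myc-ESCs covered 3101 of 5001 bases. Here the peak with the highest score, 409, lay upstream, from -2886 to -2080 bp, and an 895 bp peak with a score of 325 lay in exon 1. Of the 967 genes, 15 (1.55%), Tle3 included, had at least as many bases. H3K27me3 amounted to a single peak of 143 bp (score 75.8) from -588 to -446 bp, inside a Suz12 peak. Among the 1929 genes 85.0% had at least as many H3K27me3 bases. H3K4me3 filled the whole 5001 bp window in both cultures, and its peak measured 7705 bp in LIF-ESCs compared with 7156 bp in Myc-ESCs, with scores of 3213 and 1861. Among genes with H3K4me3 in both cultures, 2.00% had both Suz12 and H3K27me3 in Myc-ESCs only, and Tle1 and Tle3 were among them. The predicted gene Gm34157 starts 1876 bp from Tle3 on the opposite strand.

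**Figure D4:**
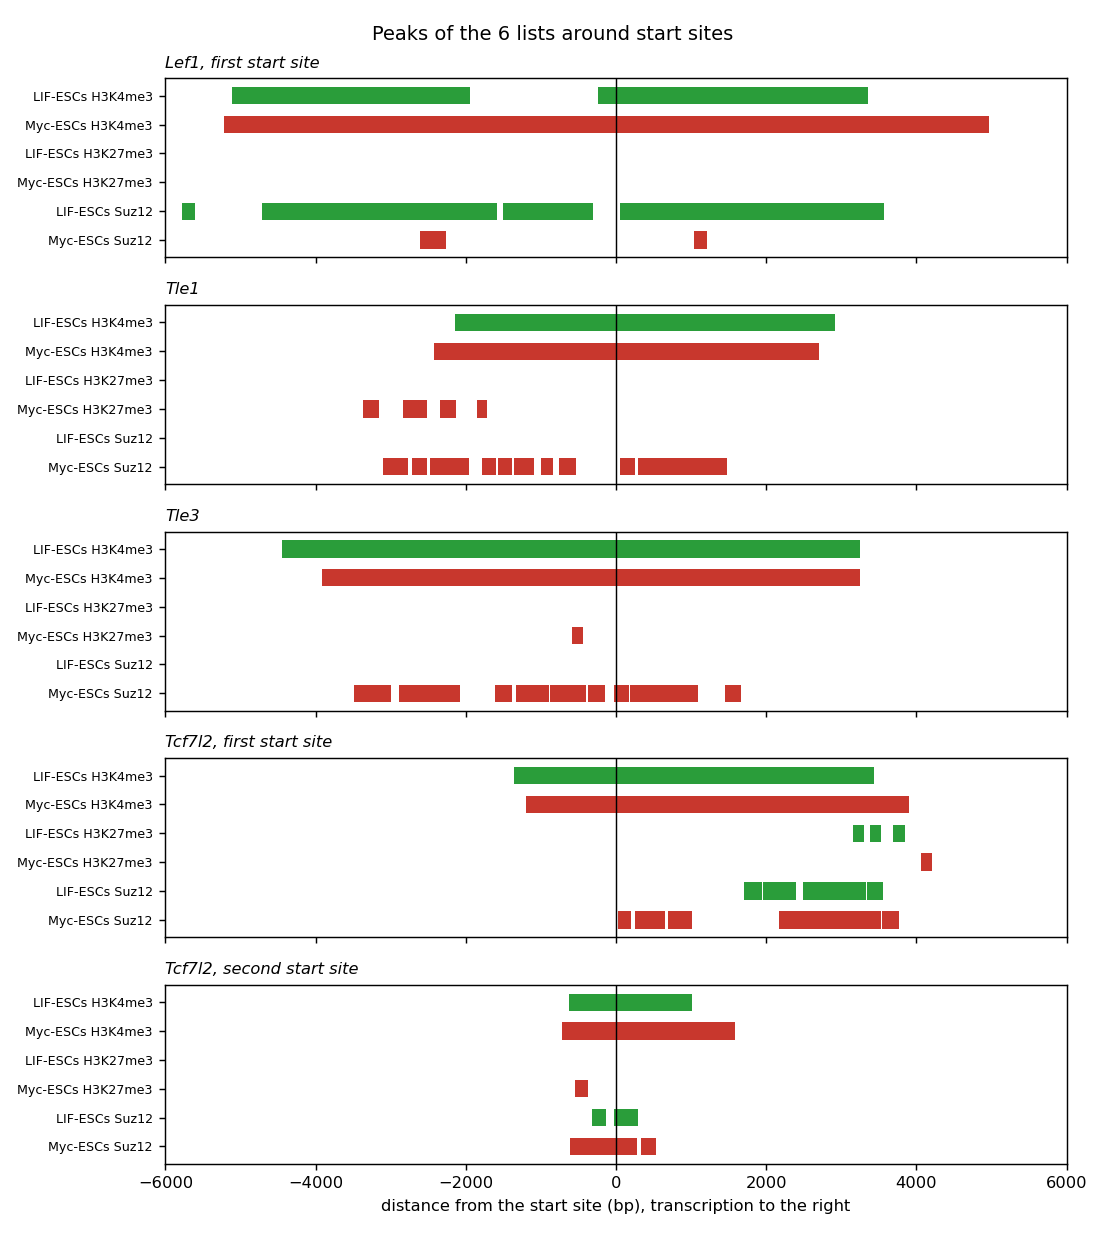
Position of the peaks of the 6 lists from -6000 to 6000 bp around 5 start sites (x axis, distance from the start site in bp with transcription to the right), with LIF-ESCs in green and Myc-ESCs in red; peaks are cut at the plot's edges. Lef1 shows 3 long and 1 short Suz12 peak in LIF-ESCs compared with 2 short ones in Myc-ESCs, whereas over the plotted range Tle1 shows 10 Suz12 peaks and Tle3 shows 9, all in Myc-ESCs.

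The sequences under the H3K27me3 peaks of Tle1 and Tle3, and under the nearest upstream Suz12 peak of each, are shown because these are the stretches called in Myc-ESCs alone. They are read on the strand of the gene from GRCm38, 5′ to 3′, with CG dinucleotides in capitals. The Tle1 stretches are chr4:72202614-72202746, chr4:72203021-72203234 and chr4:72201427-72201656 (minus strand), and the Tle3 stretches are chr9:61371778-61371920 and chr9:61371998-61372225 (plus strand).
Tle1 H3K27me3 peak, nearer: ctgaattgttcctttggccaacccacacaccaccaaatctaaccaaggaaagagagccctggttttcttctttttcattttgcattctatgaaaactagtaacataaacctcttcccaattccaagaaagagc
Tle1 H3K27me3 peak, farther: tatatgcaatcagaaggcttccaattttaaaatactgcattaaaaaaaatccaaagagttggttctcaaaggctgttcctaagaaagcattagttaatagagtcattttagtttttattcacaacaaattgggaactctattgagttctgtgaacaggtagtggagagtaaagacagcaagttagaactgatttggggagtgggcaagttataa
Tle1 Suz12 peak: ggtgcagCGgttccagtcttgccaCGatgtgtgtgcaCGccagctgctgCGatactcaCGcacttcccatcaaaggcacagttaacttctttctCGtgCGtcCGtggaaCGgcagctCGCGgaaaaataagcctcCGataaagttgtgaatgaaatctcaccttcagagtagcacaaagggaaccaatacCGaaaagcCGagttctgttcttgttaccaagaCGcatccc
Tle3 H3K27me3 peak: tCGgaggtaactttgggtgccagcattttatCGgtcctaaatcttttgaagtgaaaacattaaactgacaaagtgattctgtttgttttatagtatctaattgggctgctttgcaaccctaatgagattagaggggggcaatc
Tle3 Suz12 peak: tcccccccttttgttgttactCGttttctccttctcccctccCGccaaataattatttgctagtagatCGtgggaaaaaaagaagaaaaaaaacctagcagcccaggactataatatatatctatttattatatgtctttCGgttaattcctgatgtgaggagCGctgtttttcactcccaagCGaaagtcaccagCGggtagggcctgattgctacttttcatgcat
Neither printed H3K27me3 peak of Tle1 holds a CG dinucleotide, and the Tle3 peak holds 2. The printed Suz12 peaks hold 15 at Tle1 and 7 at Tle3, but they are not the ones that overlap the H3K27me3 peaks. The 2 Suz12 peaks that do so at Tle1 hold 1 and 3 in 185 and 520 bp, and the one at Tle3 holds 19 in 476 bp. The 5 Myc-ESC H3K27me3 peaks in the windows or bodies of the effector genes were 31.6% to 39.8% G and C, below the median of 43.4% over that list. Their 26 Myc-ESC Suz12 peaks had a median of 52.2%, beside 52.3% for the list, with a range of 32.4% to 71.8%. At Tle1, where the printed H3K27me3 peaks are 39.8% and 34.1% G and C, the 4 Suz12 peaks farthest upstream in the window are alike, at 32.4% to 36.2%.

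Tle2, on chromosome 10 (plus strand, 81574739 to 81592581), had 1 Suz12 peak in its window in Myc-ESCs, 185 bp long with a score of 52.9, near the threshold for calling. Of the 967 genes, 81.1% had at least as many Suz12 bases. A second Myc-ESC Suz12 peak of 164 bp (score 57.1), from -2831 to -2668 bp, lay outside the window. Tle2 had no H3K27me3. Its H3K4me3 peak was the shortest of the 9, at 2332 bp in LIF-ESCs compared with 2572 bp in Myc-ESCs. A separate LIF-ESC peak from -5319 to -2157 bp also reached the window, and its Myc-ESC counterpart, from -5579 to -2810 bp (score 1093), ended outside it. A further H3K4me3 peak, over exons 14 to 17, was called in both cultures with scores of 118 and 287. Tle6 overlaps the end of Tle2 on the opposite strand.

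Tle4, on chromosome 19 (minus strand, 14448072 to 14598183), was the Tle gene without any Polycomb peak. Its H3K4me3 peak measured 7291 bp in LIF-ESCs compared with 9590 bp in Myc-ESCs, both with a score of 3100. The longer Myc-ESC peak reached 7252 bp into the gene, beside 4919 bp in LIF-ESCs, and 88.9% of the 14759 genes stood at or below its log2 ratio of 0.40. In its introns LIF-ESCs had 4 further H3K4me3 peaks and Myc-ESCs had 1, and none of them overlapped a peak of the other culture.

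H3K4me3 peaks inside the genes and away from their start sites numbered 16 in LIF-ESCs compared with 9 in Myc-ESCs over the 9 genes, all with scores between 53.1 and 302. Of the 16, 8 overlapped a Myc-ESC peak, and of the 9, 7 overlapped a LIF-ESC peak. Over all genes the corresponding peaks numbered 8702 and 6563, of which 56.9% and 75.5% overlapped. Tcf7l1, Tle3 and Tle4 held 13 of the 16 LIF-ESC peaks. The effector genes followed the direction of the lists here. Their counts include the Tcf7l1 peaks that lie over the start of Gm31391.

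The promoters of the 9 genes were also compared by sequence. RefSeq promoters of 300 bases in GRCm38, from 250 before to 50 after a start site, were matched for all 9 genes and gave 16 promoters. Their CG dinucleotides, relative to those given by base composition, ran from 0.35 to 1.21 with a median of 0.89, against a median of 0.38 over 32851 promoters. Their median G and C content was 67.3%, against 52.7%. The 32851 promoters were not limited to genes with H3K4me3 in both cultures, the group of the 9 genes. These differences therefore cannot be called particular to the effector genes. The ratios did not sort the genes by their Polycomb peaks. Among genes without such a peak they ran from 0.55 (the second promoter of Tcf7) and 0.80 (Tcf7l1) to 1.21 (Ctnnb1), and the first promoters of Lef1 and Tcf7l2, both with Suz12, stood at 0.53 and 1.01. The letters CTTTGAT and CTTTGAA, which Tcf/Lef factors recognise, were searched on both strands and were absent from all 16 windows. They occurred in 3.73% and 5.14% of all promoters. The letters CACGTG, the E-box that Myc binds, were in 3 of the 16 (Tle3, Tle4 and the fourth start site of Lef1) and in 7.15% of all promoters. Among peaks of at most 300 bp, CTTTGAT was in 3 of the 15 Myc-ESC Suz12 peaks of these genes, against 2.93% of that list, CTTTGAA in 2, against 4.22%, and CACGTG in 1, against 2.62%. Of their 5 Myc-ESC H3K27me3 peaks, 1 held CTTTGAT, against 2.98%, and none held the other motifs. None of the 3 Suz12 and 3 H3K27me3 peaks of LIF-ESCs up to that length held any of them. A match is a string of letters and not evidence of binding.

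The wider pathway was read from 53 further genes in 5 lists, 1 gene of which, Axin2, is in 2 lists. H3K4me3 was present in both cultures at 51 of them. H3K27me3 was found in Myc-ESCs only at 6 of 53, against 7.69% of all genes and 11.3% of those with H3K4me3 in both cultures. The highest scores at these 6 genes ran from 57.1 to 99.0, so none would be left at a score of at least 100. Suz12 was found in Myc-ESCs only at 5, against 3.83% and 5.78%, and in LIF-ESCs only at 2, against 1.29% of all genes. For H3K27me3 the count was above the share of all genes (7.69%) and about the share of genes with H3K4me3 in both cultures (11.3%). Most of the Polycomb marks lay on the transcriptional targets of the pathway, where Suz12 was present in both cultures at 8 of 14, against 10.9% of all genes, and absent at 1. The cofactors of beta-catenin, among them Bcl9, Pygo2, Crebbp and Ep300, mostly had neither Polycomb mark. All 12 had H3K4me3 in both cultures, and 74.2% of all genes with it had neither Polycomb mark. Of 12, the only one with Suz12 was Pygo1, a chromatin reader that binds Bcl9, with 942 bases in Myc-ESCs.

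Among the 12 inhibitors and corepressors, Ctbp2 had Suz12 in Myc-ESCs only (360 bases, score 53.9). The repressor Hic1 had Suz12 in both cultures (3650 and 6738 bases) and H3K27me3 in Myc-ESCs only (528 bases, score 69.1). In the destruction complex, which degrades beta-catenin, Axin2 had 847 bases of Suz12 (score 175) and Apc2 had 133 bases of H3K27me3 (score 57.1). Each was in Myc-ESCs only, and the other 8 genes had neither mark. That was the usual case among genes with H3K4me3 in both cultures (74.2%), to which all 10 genes of this list belong. Of the 6 junction partners of beta-catenin, the N-cadherin gene Cdh2 had Suz12 in both cultures (970 and 2688 bases). It had H3K27me3 in Myc-ESCs only (198 bases, score 93.2), and the E-cadherin gene Cdh1 had neither mark.

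Among the 14 targets, T, the mesoderm factor Brachyury, had 533 bases of H3K27me3 in Myc-ESCs only (score 99.0), and the stem cell receptor gene Lgr5 had 960 (score 88.8). Notum, which encodes a Wnt-inactivating enzyme, had 2093 bases of Suz12 in Myc-ESCs only, and the homeobox gene Cdx1 had 801. The ubiquitin ligase genes Rnf43 and Znrf3, which clear Wnt receptors from the cell surface, were the 2 genes with Suz12 in LIF-ESCs only. They had 131 and 213 bases, with low scores of 88.8 and 65.8. Rnf43 had 152 bases of H3K27me3 in Myc-ESCs only (score 62.9). At none of the 14 targets were Suz12 bases fewer in Myc-ESCs by as many as at Lef1.

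The genes nearest to each effector over the 6 lists were found by the sum of the absolute differences in log2(bases covered + 1) at the start sites. A sum of 0 means the same number of covered bases in every list. Lef1 had no close match: the nearest, the transcription factor gene Zfhx3, differed by 2.41, with Suz12 at 2116 bases in LIF-ESCs compared with 465 in Myc-ESCs, and Lncpint and Bcl2l11 differed by 2.61 and 3.10. For Tle1 the nearest were Smarcd3, a subunit gene of the BAF chromatin remodeller, at 0.82, the Wnt receptor gene Fzd10 at 1.02 and Fzd10os at 1.12. For Tle3 they were Mir124a-1hg at 0.13, Zfp36l1 at 0.44 and Islr2 at 0.88. Tcf7l2 was matched by Btbd11, Ppp1r9b and Ndrg4 at 0.63 to 0.83, and Tle2, with a single short Suz12 peak in its window, by Tnfaip8l3, Ltc4s and Inpp4a at 0.12 to 0.17. The distance of Lef1 from its nearest gene was thus larger than those of the other 4 effectors with a Polycomb peak. The windows were of unequal length, at 12496 bp for Lef1, 10002 bp for Tcf7l2 and 5001 bp for Tle1, Tle2 and Tle3. A longer window can hold more bases, so window length and marks cannot be told apart in these sums.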

How the data were processed

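Per the labels, 16 ChIP-sequencing libraries of R1 MycER ESCs were made, including 4 inputs. The authors aligned reads to GRCm38 with Bowtie2 2.2.3, kept unique best matches and called peaks with MACS 1.4.2 at its defaults. They deposited 6 lists with each peak's position and a score, 10 times the negative log10 of the p-value. The sources used here do not give whether replicate libraries were pooled for calling, and the lists carry no read counts, so depth and replicate error are unknown.

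From the deposited positions, bases covered were counted within 2500 bp of every start site of 45302 curated RefSeq transcripts (25755 symbols) and over gene bodies, with Python 3.11.15, numpy 2.4.6 and pysam 0.24.0, and drawn with matplotlib 3.10.9. For comparison of covered bases between genes, the 5001 bp around the first start site were used. The search for the most similar genes used the windows of all start sites instead. Distances count from the first start site. Interval code was tested on simulated data: 0 of 6000 queries differed from a plain double loop. No comparison was tested.

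The genes and lists were chosen with earlier results of these data known. The genes named besides the 9 are those of the pathway lists with H3K27me3 or Suz12 in 1 culture only and the 3 genes most like each effector that has a Polycomb peak. Also named are the genes that define embryonic stem cells and some genes that overlap or start near 1 of the 9. Bcl9, Pygo2, Crebbp, Ep300, Cdh1, Grhl2 and Gm16136 were named after their values were seen. Other settings tried were peaks scoring 100 or more, equally long lists, windows of 1000 and 5000 bp, the outermost start site, predicted transcripts, widened gene bodies and an overlap of 50% of both peaks. Inputs, expression and Myc binding were not analysed here.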

Additional observations from a re-analysis of the deposited data

How the results depend on the processing

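Each culture and antibody had 1 list, so no replicate could be left out and values near the calling threshold are the least certain. No paired analysis was possible because each group has a single list and no test was run. Of 88 alternative values, 67 stayed within the limits set for the main value and 21 moved. H3K4me3 at all 9 start sites, and Suz12 in Myc-ESCs only at Tle1 and Tle3, held under every alternative. The weak H3K27me3 calls did not: the 3 genes with H3K27me3 in Myc-ESCs only became 0 at a score of at least 100 and with lists of equal length, although a Tle1 peak with a score of 164 lay just outside the window, and with 5000 bp windows 1 gene (Tcf7l2) had it in both cultures rather than 0. The 2 genes with Suz12 in both cultures became 1, and those with Suz12 in LIF-ESCs only went from 0 to 1 (Lef1), at a score of at least 100 and with 1000 bp windows. Over gene bodies, LIF-ESC H3K27me3 went from 1 gene to 0 at a score of at least 100, Myc-ESC H3K27me3 from 1 to 0 at that score and at equal length and to 3 in bodies widened by 5000 bp, and Myc-ESC Suz12 from 5 to 3 at that score and at equal length. Shared Suz12 peaks dropped from 7 of 9 in LIF-ESCs and 5 of 26 in Myc-ESCs to 1 each at 50% overlap. No share over all genes is given for these gene-body and shared-peak counts, so they cannot be called particular to the 9 genes. The median log2 ratio of H3K4me3 bases was 0.08 and became 0.19 with 5000 bp windows. The Lef1 log2 ratio of -3.73 became -4.54 at equal length and -3.88 with 5000 bp windows, and that of Tcf7l2, 0.95, ran from 0.68 to 1.93. The score limit and the list length remove low-scoring peaks by construction; for the other settings the cause was not tested.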
